A study of Drosophila melanogaster with 9 samples.

Results

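The SWI/SNF (Brahma) complex is a chromatin remodeller that uses ATP to slide or evict nucleosomes. In flies it exists in a pair of main forms that share a core. The BAP form carries Osa, and the PBAP form carries Polybromo. In larval brains of the fly the complex is known for helping intermediate neural progenitors (INPs) to commit and for limiting their return to a neuroblast state. The 8 genes described here are the core subunits *brm*, *mor*, *Snr1*, *Bap60*, *Bap111* and *Bap55*, the BAP subunit *osa* and the PBAP subunit *polybromo*. They were chosen by name, as 8 of the 14560 genes in the deposited table, and all 8 passed the filter on low counts. *Bap111* is listed under its older name *dalao*.

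RNA was sequenced from pooled *brat*-null larval brains (brat11/Df(2L)Exel8040), which fill with supernumerary type II neuroblasts. All groups, the controls included, carried *UAS-insb*, *Wor-Gal4* (a neuroblast driver) and *Tub-Gal80ts*. An *Ase-Gal80* that would limit Gal4 to type II neuroblasts is named for the strategy but not in the genotype of the sequenced larvae. Larvae grew for 5 days at 25 °C. The 0 hr brains stayed at 25 °C, whereas the 9 and 18 hr brains spent the last 9 or 18 hr at 33 °C, which releases Gal4 and induces Insensible (Insb), an inhibitor of Notch-dependent transcription. Each group had 3 libraries. Effects of Insb and of the warmer temperature cannot be told apart in this design. The libraries hold whole brains, so a change can come from fewer cells of a type or from less RNA per cell, and these cannot be told apart.

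Libraries held 26533845 to 37109356 counts, and the subunits had between 3897 (*Snr1*) and 29840 (*osa*) counts per library. The brains carried neuroblast markers. The 7 fixed ones (*dpn*, *mira*, *wor*, *pnt*, *btd*, *tll* and *grh*) summed to 2794 to 2961 CPM (read counts relative to library size, with TMM scaling) at 0 hr, 2306 to 2353 at 9 hr and 1830 to 2561 at 18 hr. By the test used below, 2 of the 7 (*tll* and *grh*) fell at 9 hr, where 11.8% of all genes passed in either direction. At 18 hr 2 fell (*pnt* and *tll*), against 1.66% of all genes. The log2 fold changes of *dpn* and *btd* at 9 hr were 0.04 and -0.03. Markers of 5 genes each for neurons (1117 to 1381 CPM), glia (538 to 758), fat body (19.6 to 776) and muscle (27.2 to 92.3) were also present, and none was at 0 in all libraries. Replicates 2 and 3 of the 9 hr group were nearly identical: their median chi-square per gene was 0.814, against 1.88 to 6.18 in the other 8 pairs. Pure sampling noise gives 0.910 if each fragment counts by both its ends and 0.455 if it counts once, and which holds here was not settled. Some genes still differed, such as *rept* (94.3 and 171 CPM) and *Act87E* (113 and 37.1 CPM). The mean of replicates 2 and 3 was used as a single sample wherever a mean and SD are given (n = 2 at 9 hr). Replicate 3 of the 0 hr group also stood apart, with 3799 CPM summed over 6 Hsp70 genes against 150 and 236 CPM in replicates 1 and 2 (genes picked after their values were seen). In addition, 18 hr replicate 1 had the lowest neuroblast sum of all libraries (1830 CPM) and the highest fat body (776 CPM) and muscle sums (92.3 CPM). Fold changes that moved most without either library are given without it as well.

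The subunit genes lie on 4 chromosome arms of dm6. *brm* is on 3L (15970082 to 15982869). *mor* (15968134 to 15972913), *Snr1* (5470926 to 5472754), *osa* (17687818 to 17718350) and *polybromo* (24799967 to 24805259) are on 3R. *Bap60* (13157445 to 13159508) and *Bap111* (9149309 to 9151976) are on X, and *Bap55* (17429353 to 17430963) is on 2R. Exons of 7 of the 8 genes overlap no exon of another annotated gene. *mor* shares 5 of its 3983 exonic bases with *Rbf2* on the opposite strand.

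All 8 subunit genes were expressed in every library. Per kilobase of exon, which allows genes to be compared, the highest level over the 9 libraries was that of *Bap60*, a core subunit that contacts transcription factors (mean 150 CPM per kb). It was followed by *mor*, the scaffold subunit (131), *Snr1*, the fly counterpart of yeast SNF5 (112), *Bap55*, an actin-related protein (110), and *Bap111*, an HMG-box protein (107). *brm*, the ATPase, was at 71.9 CPM per kb, *osa*, an ARID-domain protein, at 68.5, and *polybromo*, which has several bromodomains, at 34.4. The ranges over libraries overlapped between all neighbours in this order except the last. *polybromo* (29.7 to 39.7 CPM per kb) lay below *osa* (42.9 to 83.4) in all 9 libraries. *Bap60* was above *mor* and *mor* above *Snr1* in 9 of 9 libraries, but *Bap55* exceeded *Bap111* in only 5. These were all of the 0 hr, none of the 9 hr and some of the 18 hr libraries. These levels use all annotated exons of a gene and would shift if fewer isoforms were used.

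**Figure D1:**
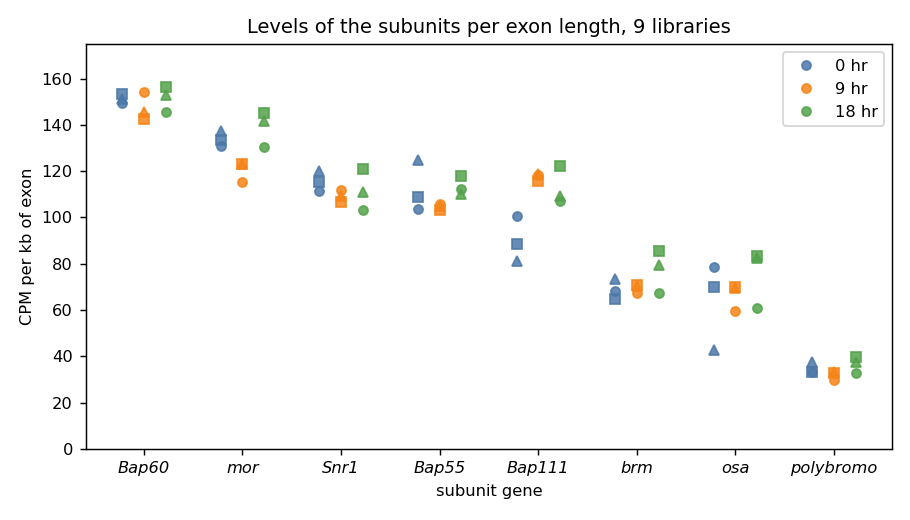
Level of each subunit gene in CPM per kb of exon (vertical axis) in the 9 libraries, coloured by hours of Insb overexpression; circles, squares and triangles are replicates 1, 2 and 3. *Bap60* is at the top with a mean of 150 CPM per kb and *polybromo* at the bottom with 34.4, and the lowest *osa* point (42.9) is 0 hr replicate 3.

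After 9 hr of Insb overexpression, *Bap111* was the only subunit gene that passed the test, and its rise was 1.304-fold. This call depended on giving 9 hr replicates 2 and 3 the weight of 2 libraries. With their counts summed into 1, *Bap111* had an adjusted p of 0.0761 in edgeR and 0 of 8 subunits passed. Over all genes, 422 then passed in place of 1279. In the fit over all 9 libraries, used below unless stated, the other 7 subunits gave log2 fold changes between -0.15 (*mor*) and 0.06 (*osa*). Thus 1 of 8 subunits had a Benjamini-Hochberg adjusted p under 0.05 in edgeR's quasi-likelihood fit, where 11.8% of the 10799 genes tested did so in either direction. With a fold change of at least 1.5 as a further condition, 0 of 8 subunits were called against 3.69% of all genes. Before adjustment, p was under 0.05 for 2 of 8 (*Bap111* and *mor*; 28.6% of all genes), and DESeq2's adjusted p picked the same 2, with 18.2% of all genes under 0.05. The median log2 fold change was -0.06 for the subunits and 0.00 for all genes tested, and the median size of change, sign aside, was 0.09 and 0.19. The 95% interval of the fold change lay within 1.5-fold either way for all 8 subunits, as it did for 56.9% of all genes. This holds for the fit that gives 9 hr replicates 2 and 3 the weight of 2 libraries. With their counts summed, the standard error of the log2 fold change was larger. It was 0.0994 in place of 0.0838 for *Bap111* and 0.255 in place of 0.215 for *osa*. Whether all intervals then stay within 1.5-fold is not given here. Only 3911 of the 10799 genes averaged 50 CPM or more, as all 8 subunits did (150 to 735 CPM). Neither the sizes nor the intervals, here and below, were compared at matched expression.

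*Bap111* encodes the HMG-box subunit of the shared core. Its level was 269, 236 and 217 CPM in 0 hr replicates 1, 2 and 3. At 9 hr it was 316, 309 and 317 CPM, and at 18 hr 286, 326 and 292 CPM. Every library at 9 and at 18 hr lay above every 0 hr library. The 0 hr libraries were spread more widely than those at 9 hr, but the latter include the near-identical replicates 2 and 3, so these spreads are not alike. The 0 hr mean was 241 ± 26.5 CPM (SD, n = 3). It compared with 314 ± 1.72 after 9 hr (n = 2) and 301 ± 21.5 after 18 hr (n = 3). The log2 fold change at 9 hr was 0.38 (95% interval 0.19 to 0.58, adjusted p = 0.0254), and at 18 hr 0.32 (0.13 to 0.52, adjusted p = 0.0980), which missed the threshold. The 9 and 18 hr levels gave a log2 fold change of -0.06 (-0.25 to 0.13, adjusted p = 0.815).

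The call of *Bap111* at 9 hr was lost in 5 of 9 fits that left out 1 library. Its adjusted p rose above 0.05 without 0 hr replicate 2 (0.0835) or 3 (0.0577), and without 9 hr replicate 1 (0.0879), 2 (0.0702) or 3 (0.0824). It was 0.0182 without 0 hr replicate 1 and 0.0236 to 0.0431 without any one of the 18 hr libraries, and 0.0761 with the near-identical 9 hr libraries summed as one. The log2 fold change stayed between 0.31 and 0.47 throughout, and without 0 hr replicate 3, the library high in Hsp70, it was 0.31. Of the 17 alternatives run, 11 kept the adjusted p under 0.05, and its extremes were 0.000735 (DESeq2) and 0.0879. At 18 hr, DESeq2 gave *Bap111* an adjusted p of 0.0131. The summed neuroblast markers were lower in all 9 hr than in all 0 hr libraries, as given above, and their part in this rise was not tested.

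Relative to its partners *Bap111* moved in the same way. Its share of the summed level of the 8 subunits per kb was 13.0, 11.6 and 10.6% in 0 hr replicates 1, 2 and 3. It was 15.5, 15.1 and 15.3% at 9 hr and 14.1, 14.01 and 13.3% at 18 hr. The 3 groups did not overlap in this share, which needs no scaling between libraries. It rests on the same *Bap111* counts as the test above, and no background for such shares was computed. Other subunits were separated in part too. The share of *mor* was 15.1 to 16.1% at 9 hr, below all its 0 and 18 hr values. That of *Snr1* was 13.4 to 13.9% at 18 hr, below all its 0 and 9 hr values. Meanwhile the summed level was 767 to 776 CPM per kb at 0 hr, 762 to 775 at 9 hr and 759 to 871 at 18 hr, so the groups overlapped in the total.

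**Figure D2:**
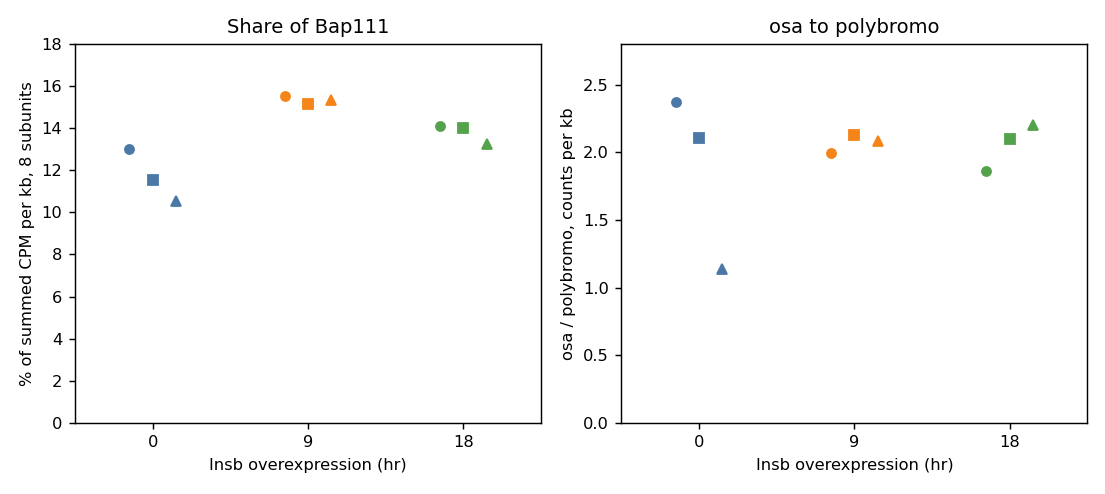
Left, share of *Bap111* in the summed CPM per kb of the 8 subunits (%); right, ratio of *osa* to *polybromo* in counts per kb; both against hours of Insb overexpression, with circles, squares and triangles for replicates 1, 2 and 3. The *Bap111* share is 10.6 to 13.0% at 0 hr and 15.1 to 15.5% at 9 hr, and the *osa* to *polybromo* ratio is 1.86 to 2.37 in all libraries but 0 hr replicate 3 (1.14).

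*mor*, the Moira scaffold on which the core assembles, moved the other way at 9 hr, by less than the test could call. It was at 521, 532 and 547 CPM in the 0 hr libraries, 459, 490 and 491 CPM at 9 hr, and 519, 579 and 564 CPM at 18 hr. All 9 hr libraries lay below all others. The log2 fold change was -0.15 at 9 hr (95% interval -0.28 to -0.03, adjusted p = 0.108) and 0.05 at 18 hr (-0.07 to 0.18, adjusted p = 0.689). Between 9 and 18 hr it was 0.21 (0.08 to 0.33, adjusted p = 0.274). With DESeq2 the adjusted p was 0.0407 at 9 hr against 0 hr and 0.0310 at 18 hr against 9 hr. *mor* and *Bap111* were thus the 2 of 8 subunits whose 0 and 9 hr libraries did not overlap, while 40.0% of all genes tested were separated in this way.

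The ATPase gene *brm* was level between 0 and 9 hr. Its values were 382, 362 and 412 CPM at 0 hr and 378, 397 and 395 CPM at 9 hr, with a log2 fold change of 0.02 (95% interval -0.19 to 0.22, adjusted p = 0.932). At 18 hr they were 376, 478 and 444 CPM (0.17, -0.04 to 0.37, adjusted p = 0.385). The lowest 18 hr library lay among the 0 hr libraries and the others above them.

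*Snr1*, *Bap60* and *Bap55* had log2 fold changes between -0.10 and 0.11 in all 3 comparisons. *Bap60* was between 276 and 303 CPM in all 9 libraries and its log2 fold change was -0.04 at 9 hr (95% interval -0.15 to 0.07) and 0.00 at 18 hr (-0.11 to 0.11). *Snr1* was between 138 and 161 CPM, with -0.08 (-0.23 to 0.07) at 9 hr and -0.05 (-0.20 to 0.10) at 18 hr. *Bap55* was at 153, 160 and 184 CPM at 0 hr, 156, 152 and 155 CPM at 9 hr, and 166, 174 and 162 CPM at 18 hr. Its 18 hr libraries lay above its 9 hr libraries, but both groups fell within or near the range at 0 hr. The log2 fold change of *Bap55* was -0.10 (-0.26 to 0.06) at 9 hr and 0.01 (-0.15 to 0.17) at 18 hr. Without 0 hr replicate 3, where *Bap55* was highest, these were -0.02 and 0.09. None of these had an adjusted p under 0.05 in any comparison, the smallest being 0.372 for *Bap55* at 9 hr.

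**Figure D3:**
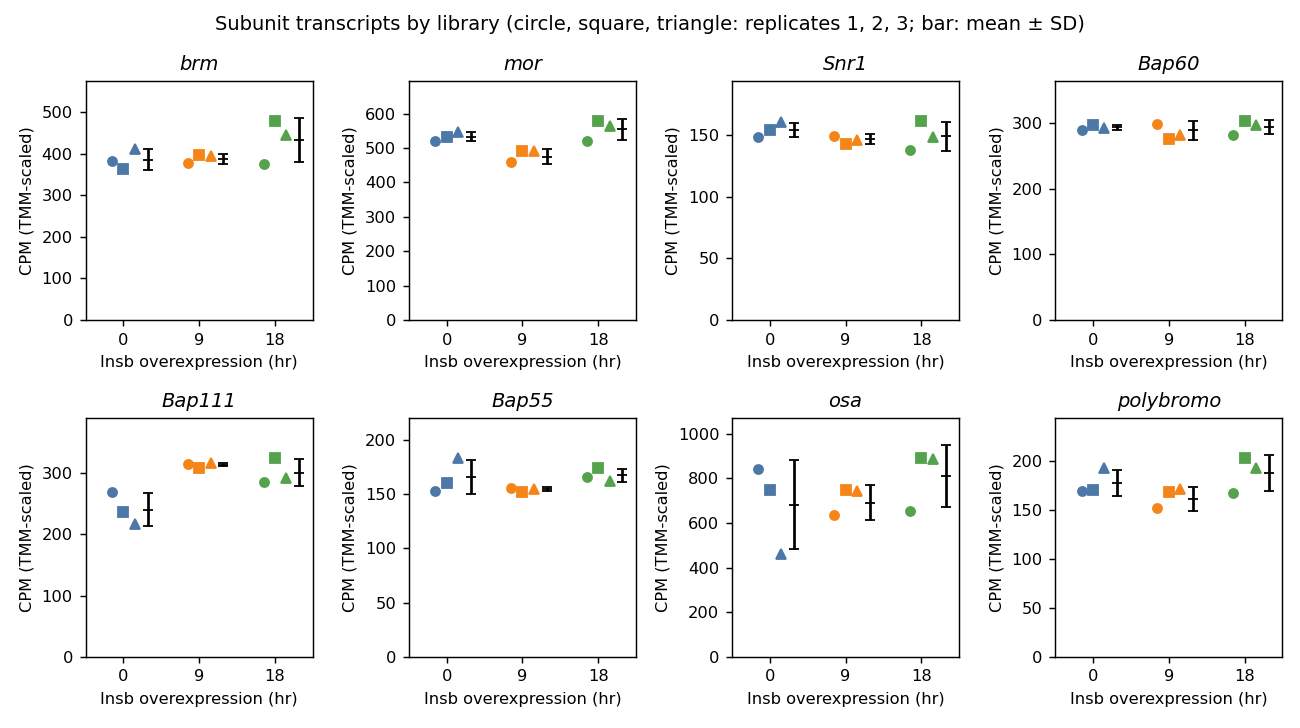
CPM (TMM-scaled, vertical axes from 0) of each subunit gene against hours of Insb overexpression; circles, squares and triangles are replicates 1, 2 and 3, and black bars are the mean ± SD with n = 3, 2 and 3 because 9 hr replicates 2 and 3 count as 1. *Bap111* at 9 and 18 hr lies above all its 0 hr points, and *osa* spans 459 to 841 CPM within the 0 hr group.

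*osa*, which defines the BAP form, was the least even of the subunits between replicates. It was at 841, 748 and 459 CPM in 0 hr replicates 1, 2 and 3, at 636, 750 and 744 CPM at 9 hr and at 653, 894 and 886 CPM at 18 hr. The 3 groups overlapped. Its SD within groups was 0.32 on the log2 scale, larger than in 95.5% of the 3911 genes averaging 50 CPM or more, whereas the other 7 subunits lay between 0.05 and 0.12. Without 0 hr replicate 3 the SD of *osa* was 0.19, larger than in 88.7% of these genes, a value computed after the data were seen. The log2 fold change was 0.06 at 9 hr (95% interval -0.44 to 0.55, adjusted p = 0.895) and 0.25 at 18 hr (-0.25 to 0.74, adjusted p = 0.631). A 1.5-fold rise of *osa* at 18 hr therefore lay inside the interval.

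The low value of *osa* belonged to 0 hr replicate 3, the library high in heat-shock transcripts. There it was 1.72-fold lower than the geometric mean of the other 0 hr libraries, the 5th largest fall among 2220 genes averaging 100 CPM or more, a ranking made after its value was seen. Hsp70 in this library was 16.1-fold above the higher of the others. The 9 hr libraries had 484, 1375 and 1453 CPM of Hsp70 and the 18 hr libraries 217, 2150 and 338 CPM. The 18 hr library with 2150 CPM was the one with 894 CPM of *osa*. The part of the heat-shock state in the *osa* level was not tested. Without 0 hr replicate 3 the sign at 9 hr turned, with a log2 fold change of -0.16 (adjusted p = 0.515), and the one at 18 hr was 0.03 (adjusted p = 0.947).

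*polybromo*, the PBAP subunit, was more even. It was at 169, 170 and 193 CPM at 0 hr, 152, 168 and 171 CPM at 9 hr, and 167, 203 and 192 CPM at 18 hr. Its groups overlapped, with log2 fold changes of -0.11 at 9 hr (95% interval -0.32 to 0.09, adjusted p = 0.435) and 0.08 at 18 hr (-0.12 to 0.29, adjusted p = 0.717). Without 0 hr replicate 3 these were -0.05 and 0.15. The ratio of *osa* to *polybromo* per kb, which sets the BAP-specific against the PBAP-specific transcript, was 2.37, 2.11 and 1.14 in the 0 hr libraries. It was 1.998, 2.13 and 2.08 at 9 hr and 1.86, 2.101 and 2.199 at 18 hr. The log2 ratio differed by 0.21 between 9 and 0 hr and by 0.20 between 18 and 0 hr, less than the pooled SD of 0.40 and 0.41, with a two-sided exact permutation p of 0.9 in each (the smallest it can give is 0.1). Between 18 and 9 hr the difference was -0.01 (exact permutation p = 0.9). Without 0 hr replicate 3 it was -0.11 at 9 hr and -0.13 at 18 hr, so the sign of this ratio's change rested on that library.

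After 18 hr, no subunit gene passed the test. The adjusted p was under 0.05 for 0 of 8 subunits and for 1.66% of all genes, and with the 1.5-fold condition the shares were 0 of 8 and 0.833%. Before adjustment, p was under 0.05 for 1 of 8 (*Bap111*, against 17.8% of all genes), and DESeq2's adjusted p gave the same gene, with 6.64% of all genes under 0.05. *Bap111* was the only subunit whose 0 and 18 hr libraries did not overlap, where 20.9% of all genes did not. The intervals of 7 subunits lay within 1.5-fold, all but that of *osa*, against 60.9% of all genes. Log2 fold changes were above 0 for 7 of the 8, with a median of 0.07 against 0.01 for all genes.

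The comparison of 18 with 9 hr gave 0 of 8 subunits at an adjusted p under 0.05, where 0.00926% of all genes (a single one) passed, with or without the 1.5-fold condition. An unadjusted p under 0.05 was found for 1 of 8 (*mor*; 10.8% of all genes). DESeq2 also called *mor*, with 2.07% of all genes called. Libraries of *mor* and *Bap55* did not overlap between these times (2 of 8, against 18.5% of all genes), both higher at 18 hr. Intervals lay within 1.5-fold for 7 of 8 subunits, again all but *osa*, and for 63.0% of all genes. Log2 fold changes were above 0 for 7 of 8, with a median of 0.13 against 0.01 for all genes, and the median size was 0.13 against 0.12. The 3 comparisons share libraries, so their values are not independent of each other.

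**Figure D4:**
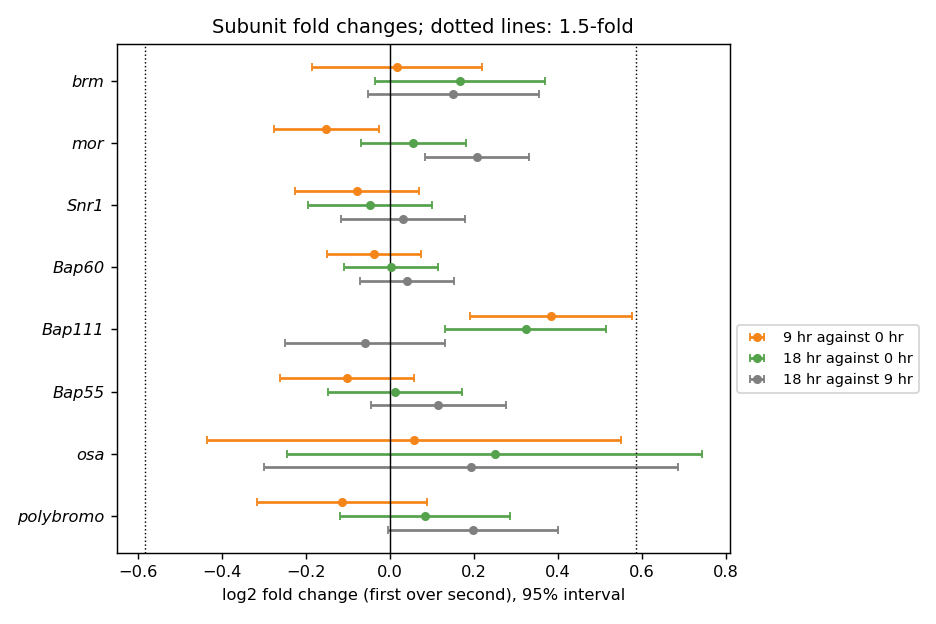
Log2 fold change (horizontal axis) of each subunit gene in the 3 comparisons, with 95% intervals from the edgeR fit over all 9 libraries; dotted lines mark 1.5-fold in either direction. The interval of *Bap111* at 9 hr runs from 0.19 to 0.58, and that of *osa*, the widest, from -0.25 to 0.74 at 18 hr.

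Within the 18 hr group the subunits moved together between libraries. All 8 had their highest level in replicate 2, and 7 (all but *Bap55*) had their lowest in replicate 1. Over all genes tested, replicate 2 was highest in 37.5% and replicate 1 lowest in 38.3%. The order was not particular to these subunits. Among the other subunits listed below, *Bap170*, *e(y)3*, *Brd7-9*, *Bicra* and *BCL7-like* were also lowest in replicate 1 and highest in replicate 2. *Act5C*, *d4* and *tth* were not. *Iswi*, of another remodeller family, had the same order. In replicate 1, *osa* was 0.30, *brm* 0.20 and *polybromo* 0.16 below the mean of the group on the log2 scale. These are the 3 subunits with the longest exons (10723, 5597 and 5119 bases). The others were at -0.11 (*Snr1*, the shortest at 1335 bases), -0.09 (*mor*), -0.07 (*Bap111*), -0.06 (*Bap60*) and -0.01 (*Bap55*). The 965 genes with 5 kb of exon or more that averaged 50 CPM or above had a median deviation of -0.14 in this library and 0.10 in replicate 2, compared with 0.03 and -0.01 for 1137 genes under 2 kb. 9 hr replicate 1, where *osa*, *polybromo*, *brm* and *mor* were lowest, had -0.09 for the long and 0.05 for the short genes. Replicate 1 was also the library with the low neuroblast sum, at 1830 CPM against 2536 and 2561 CPM in replicates 2 and 3. Its fat body sum was 776 CPM against 28.0 and 43.9 CPM, and its muscle sum 92.3 CPM against 27.2 and 38.3 CPM. The parts of transcript length and of other tissue in the subunit values were not tested. Without this library the log2 fold change at 18 hr against 0 hr was 0.26 for *brm*, 0.38 for *osa*, 0.16 for *polybromo* and 0.36 for *Bap111*, and 0 of 8 had an adjusted p under 0.05 (from 0.0838 for *brm* to 0.980 for *Snr1*). At 0 hr, *Bap111* and *osa* were lowest in replicate 3, in which 5 of the other 6 were highest.

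**Figure D5:**
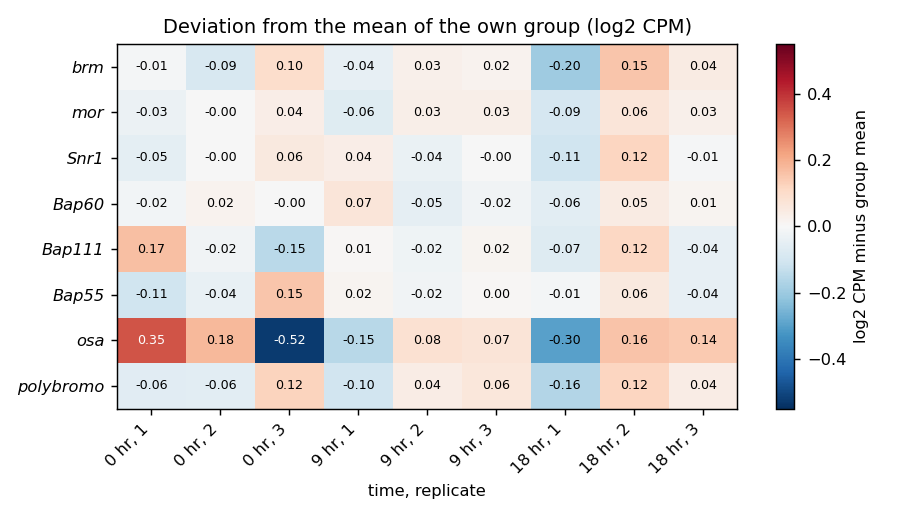
Deviation of each subunit gene from the mean of its own group (log2 CPM; colour and printed value) in each of the 9 libraries. In 18 hr replicate 2 all 8 values are above 0, from 0.05 to 0.16, and the largest single deviation is that of *osa* in 0 hr replicate 3 (-0.52).

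The likeness of patterns was measured as the root mean squared difference of log2 CPM, each gene centred on its mean over the 9 libraries. Among the subunits, *Snr1* and *Bap60* were the most alike (0.05), followed by *mor* and *polybromo* (0.05) and *brm* and *polybromo* (0.07). The least alike were *Bap55* and *osa* (0.33). Over all genes tested, the nearest to *brm* were *S*, *RhoGAP54D* and *B4* (0.03 each), and the nearest to *mor* were *Lam*, *Mi-2* and CG2807 (0.03 each). The nearest to *Bap111* were CG8929 (0.04), *RpL23A* (0.04) and *RpL4* (0.05), and those to *polybromo* were *Atg2*, *Cp190* and *swm* (0.03 each). *Bap60* was nearest to *RpLP1*, *RpL19* and *RpL12* (0.02, 0.02 and 0.03), *Snr1* to CG9915, *rdgBbeta* and *Bgb* (0.02, 0.02 and 0.03), and *Bap55* to CG10333, *egg* and *FRG1* (0.03 each). No gene came as close to *osa*, whose nearest were CG13653, CG43169 and CG10555 (0.12, 0.13 and 0.14), the first and second of them at means of 0.305 and 0.196 CPM. Evenly expressed genes are close to each other by this measure.

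Other subunits of the BAP, PBAP and GBAP forms were also listed. The list holds *Bap170* and *e(y)3*, both of PBAP, *Brd7-9* and *Bicra* of GBAP, and *Act5C*, *d4*, *tth* and *BCL7-like*. All 8 were tested, and 0 had an adjusted p under 0.05 in edgeR in any of the 3 comparisons. Over all genes, 11.8% did so at 9 hr, 1.66% at 18 hr and 0.00926% at 18 hr against 9 hr. Before adjustment, p was under 0.05 for 2 (*Brd7-9* and *d4*) at 9 hr against 0 hr, 0 at 18 hr against 0 hr and 1 (*d4*) at 18 hr against 9 hr. The shares of all genes before adjustment were 28.6%, 17.8% and 10.8%. DESeq2 called 1, 0 and 0, against 18.2%, 6.64% and 2.07% of all genes. Its call was *d4*, a double PHD-finger protein. *d4* was at 76.4, 84.4 and 87.4 CPM at 0 hr, 84.4, 116 and 116 CPM at 9 hr, and 84.7 to 87.4 CPM at 18 hr. Its high values were those of the near-identical pair. Log2 fold changes ran from -0.26 (*Brd7-9*) to 0.35 (*d4*) at 9 hr, with a median of -0.10, and from -0.09 to 0.06 at 18 hr, with a median of -0.04.

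A further 5 genes were listed for their roles in fly INPs and neuroblasts. *erm*, a transcription factor that keeps INPs from reverting, rose by 1.64 at 9 hr and 1.49 at 18 hr on the log2 scale (adjusted p = 0.000754 and 0.00245). *opa*, a zinc-finger factor of INPs, rose by 0.63 at 18 hr (adjusted p = 0.00864) from 44.6 to 49.6 CPM at 0 hr to 65.7 to 79.8 CPM at 18 hr. *tll*, a neuroblast factor that is also in the neuroblast list, fell by 1.04 and 1.10 (adjusted p = 0.00268 and 0.00463). In all, 2 of the 5 rose (*erm* and *ham*) and 1 fell (*tll*) at 9 hr, and 3 rose and 1 fell at 18 hr. Over all genes, 11.8% passed at 9 hr and 1.66% at 18 hr in either direction. *Hdac3*, a histone deacetylase, had log2 fold changes of 0.01 and 0.05, inside the range of the subunits. The largest change of a subunit, 0.38, was smaller in size than those of *erm*, *ham* and *tll* in the same comparison. The authors had reported *erm*, *ham* and *tll* as changed in these same libraries, so this contrast and these counts were set in advance.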

How the data were processed

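Paired-end poly-A reads were mapped by the authors (HISAT2 version 2.1.0, build dm6) and summarised by gene (StringTie version 1.3.4). The deposited values are raw counts. The annotation and the use of strand in counting are not given in the sources used here. The 9 libraries were grouped by their labels into 0, 9 and 18 hr. The subunits and all lists were chosen with earlier results of these data known. Of 14560 names, 14405 matched a current RefSeq symbol. Positions and exon lengths come from Ensembl's annotation of dm6.

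Genes were filtered with filterByExpr (10799 kept) and then scaled by TMM. A single edgeR version 4.0.16 model (glmQLFit, glmQLFTest) took in the 9 libraries, in R version 4.3.3, with Benjamini-Hochberg adjustment over all genes. A call needed an adjusted p under 0.05, and a second rule also a fold change of at least 1.5. Intervals of 95% come from the quasi-likelihood F and are not adjusted. The fit was tested on simulated data. The label numbers do not say that replicates share a culture, so p-values measure the spread between these libraries. Profiles were compared as log2(CPM + 0.5).

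Alternatives were DESeq2 version 1.42.0, RLE and upper-quartile scaling, other filters, the compared libraries alone, a replicate block, each library left out, and 9 hr replicates 2 and 3 summed. All 8 subunits, other subunits, the 3 genes nearest to each subunit and the listed INP genes were to be named. The near-identical pair entered the fit as separate libraries.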

Additional observations from a re-analysis of the deposited data

How the results depend on the processing

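*Bap111* at 9 hr was the 1 subunit called without a fold threshold. DESeq2 made 2 calls at 9 hr, 1 at 18 hr and 1 at 18 hr against 9 hr. Summing 9 hr replicates 2 and 3 gave 0 at 9 hr, and leaving out each library gave 0 to 1 there and 0 in the other comparisons. Scaling and filtering changed no subunit's call. The 1.5-fold rule gave 0 calls under every alternative run, except that dropping the fold threshold gives the 1 call of *Bap111*. Same-numbered libraries did not consistently deviate together (r across genes from -0.28 to 0.39 over 9 pairs). The highest r, 0.52, was that of 0 hr replicate 3 with 18 hr replicate 2. With 3 libraries a group, these values cannot decide whether same-numbered libraries shared a batch. With the replicate block, 1, 0 and 0 subunits passed at 9 hr, 18 hr and 18 against 9 hr, and *Bap111* had an adjusted p of 0.0470. The *osa* to *polybromo* difference without one library ran from -0.11 to 0.42 at 9 hr, -0.13 to 0.40 at 18 hr and -0.06 to 0.06 between them.

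Counts over all genes moved more. The 1279 genes at 9 hr became 1981 with DESeq2 (counted over every gene it fitted), 422 with the pair summed, and 419 to 1761 with a library left out. The 179 at 18 hr became 728 with DESeq2, 31 with the compared libraries alone, 78 with the block, 73 with the pair summed and 47 to 282 with a library left out. Between 9 and 18 hr they ran from 0 to 207, the most with DESeq2. With 3 libraries a group, small changes can be missed.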

Other observations

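Other remodeller families were listed by name, with earlier results known (ISWI, CHD and NuRD, INO80, SWR1/Tip60; 36 genes, 35 tested). At 9 hr, 2 rose and 2 fell at an adjusted p under 0.05 in edgeR (4 of 35, where 11.8% of all genes passed, so the share is near the background), with a median log2 fold change of -0.04. DESeq2 called 7 of the 35, where it called 18.2% of all genes. *Ing3* of the Tip60 complex rose by 0.41 (adjusted p = 0.0241) and *Nurf-38* by 0.26 (0.0158). *Chrac-16* fell by 0.34 (0.0118), and *E(bx)*, the largest subunit of the nucleosome remodelling factor NURF, fell by 0.33 (0.0339). At 18 hr edgeR called *Chrac-16* alone, at -0.33 (0.0383), where 1.66% of all genes passed. DESeq2 called 3 (*Chrac-16*, *Nurf-38* and *Arp5*), against 6.64% of all genes. *Chrac-16* was at 69.5 to 71.3 CPM at 0 hr, 50.9 to 58.6 at 9 hr and 54.5 to 57.4 at 18 hr. Between 9 and 18 hr, 0 passed in edgeR (0.00926% of all genes did) and 4 had an unadjusted p under 0.05 (10.8% of all genes). DESeq2 called 1, *E(bx)*, against 2.07% of all genes.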
